A study of Caenorhabditis elegans with 35 samples.

Results

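Whole-animal RNA of F4 Caenorhabditis elegans homozygous for a wdr-5 mutation, written wdr-5/wdr-5 in the labels and called F4 mutants here, was compared with RNA of F4 animals that were genetically wild type and descended from wdr-5 mutants. The second group, written +/+ (from wdr-5), is called F4 descendants. Both groups have mutant ancestors, so the comparison asks what the genotype itself does to expression in animals of like ancestry. Each group had 6 arrays, which made 12 of the 35 arrays of the series, chosen by their titles alone. Replicates 1 to 3 of each group carried birth day 1 in the labels and replicates 4 to 6 carried birth day 2. All animals were labelled as lysates of whole worms at the third larval stage, L3, grown at one temperature. The labels name neither the allele nor the number of lines, and do not say whether arrays of a group came from separate cultures. The p-values therefore measure the spread between these RNA samples. The rest of the series holds F4 animals without mutant ancestors (+/+ from +/+, 6 arrays) and the same 3 groups in the F5 generation (17 arrays).

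WDR-5.1 is a WD-repeat protein that holds together the complexes which place methyl groups on lysine 4 of histone H3, a mark found at the starts of active genes. In C. elegans this protein, the methyltransferase SET-2 and the subunit ASH-2 are known for their effect on lifespan, on germline function and on the memory of expression states between generations. Loss of the complex lowers the mark over the genome, but single genes can rise as well as fall.

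Values are log2 intensities, so a difference of 1 is a 2-fold change. A difference was called where its adjusted p in limma was under 0.05, with Benjamini-Hochberg adjustment over all 20806 probe sets, and "rose" and "fell" refer to mutants against descendants. Replicate arrays of the 12 had pairwise r values of 0.9936 to 0.9965 within a day. In F5, mutant replicates 1 and 6 stood apart, with r values of 0.9829 to 0.9831 and of 0.973 to 0.9793 to the other F5 mutant arrays of their day, which had 0.9958 and 0.9949 among themselves. They enter the spread that all comparisons share, and without both of them the F4 comparison had 1524 rises and 1512 falls by probe sets in place of 1218 and 1237. The deposited values of the birth days differ at the low end, with 25th percentiles of 3.71 to 3.88 on day 1 and 4.56 to 4.63 on day 2, so levels of the groups were compared within a day only. The number of arrays limits the precision, and the median standard error of a difference was 0.081.

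The mutated gene was read first, although where its probes lie relative to the mutation is not given in the sources used here. The wdr-5.1 level in mutants was 4.72, 5.01 and 4.01 on birth day 1 and 4.83, 5.91 and 5.51 on birth day 2. Descendants had 8.65, 8.39 and 8.46 on day 1 and 8.58, 8.77 and 8.67 on day 2. No mutant array came near a descendant array, and the fitted difference was -3.59 ± 0.14 (SE, n = 6 per group, adjusted p = 1.61e-18), a 12-fold fall. The paralogs did not pass: wdr-5.2 differed by -0.02 ± 0.06 (adjusted p = 0.885) and wdr-5.3 by 0.35 ± 0.23 (adjusted p = 0.371). For wdr-5.3 the days parted, with 0.83 on day 1 (adjusted p = 0.0191 within the day) and -0.13 on day 2. The difference between these days had an adjusted p of 0.116.

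Over all genes the mutant differed widely but by small steps. With 1 unambiguous probe set per gene, 1034 of 16780 genes rose, or 6.16%, and 879 fell, or 5.24%. By probe sets these were 1218 rises (5.85%) and 1237 falls (5.95%), or 2455 in all (11.8%). The median change of the called genes was 0.37 for rises and -0.36 for falls, while the median of all genes was 0.0016. Only 41 of the rises and 11 of the falls reached 2-fold. The groups did not overlap within a day in 596 of the called rises (57.6%) and in 524 of the called falls (59.6%). Over all genes, such separation occurred above the descendants in 4.34% and below them in 4.0%.

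**Figure D1:**
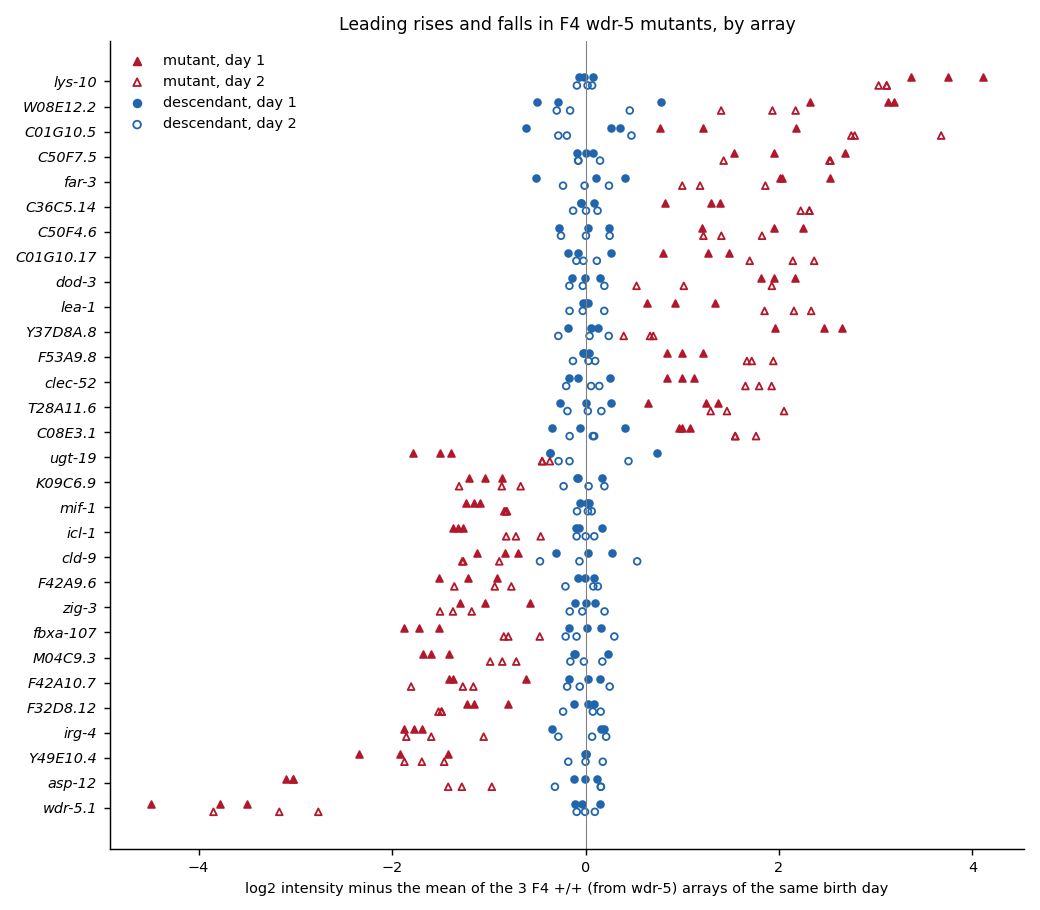
Each mark is 1 array of F4 mutants (triangles) or F4 descendants (circles), filled for birth day 1 and open for birth day 2, as log2 intensity minus the mean of the 3 same-day descendant arrays; rows are the 15 largest rises and the 15 largest falls. For lys-10 the mutant arrays lie more than 2 log2 units above all descendant arrays, and for wdr-5.1 they lie more than 2 units below.

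The largest rise was in lys-10, a member of the lysozyme family whose enzymes cut bacterial cell walls. Its level was 7.02, 6.63 and 7.38 in mutants on day 1 and 7.54, 7.54 and 7.46 on day 2. In descendants it was 3.26, 3.35 and 3.2 on day 1 and 4.49, 4.34 and 4.45 on day 2. All 6 descendant values lay under the 25th percentile of their array, a range where background was not assessed, so the size of the rise is uncertain there. The fitted difference was 3.41 ± 0.13 (SE, adjusted p = 3.16e-19), a rise of over 10-fold.

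Next in size were genes of which several carry no name beyond their locus. W08E12.2 rose by 2.36 ± 0.29, C01G10.5 by 2.23 ± 0.37, C50F7.5 by 2.11 ± 0.28, C36C5.14 by 1.73 ± 0.25, C50F4.6 by 1.64 ± 0.14 and C01G10.17 by 1.63 ± 0.29 (SE, highest adjusted p = 2.33e-04). Of named genes, far-3, whose protein binds fatty acids and retinol, rose by 1.77 ± 0.19 (adjusted p = 1.05e-07). Its mutant arrays read 6.72 to 7.24 on day 1 and 6.58 to 7.44 on day 2. Its descendant arrays read 4.20 to 5.12 and 5.35 to 5.83, without overlap on either day. The gene dod-3, named for acting downstream of the FOXO factor DAF-16, rose by 1.57 ± 0.24 (adjusted p = 3.35e-05). Mutants read 6.21 to 6.56 on day 1 and 6.71 to 8.11 on day 2 for dod-3, against 4.26 to 4.55 and 6.01 to 6.37 in descendants. Its mutant values on day 2 were more spread out than those on day 1, and the groups did not overlap within a day. The late embryogenesis abundant protein gene lea-1, whose protein helps cells survive drying, rose by 1.54 ± 0.17 (adjusted p = 1.51e-07). The lectin gene clec-52 rose by 1.39 ± 0.14 (adjusted p = 3.88e-08). The remaining 4 of the 15 largest rises were Y37D8A.8, F53A9.8, T28A11.6 and C08E3.1, at 1.47, 1.40, 1.34 and 1.32.

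After wdr-5.1, the deepest fall was in asp-12, an aspartyl protease gene. Mutants read 7.80, 7.80 and 7.72 on day 1 and 9.35, 9.04 and 8.90 on day 2. Descendants read 10.71, 10.82 and 10.95 on day 1 and 10.48, 10 and 10.48 on day 2. The groups stood apart on both days, and the fitted difference was -2.14 ± 0.20 (SE, adjusted p = 5.70e-09). The infection response gene irg-4 fell by 1.64 on the log2 scale (SE 0.15, adjusted p = 8.18e-09), with mutants at 5.19 to 5.37 on day 1 and 5.23 to 6.03 on day 2, against 6.72 to 7.25 and 6.80 to 7.29 in descendants. Y49E10.4 stood at -1.79 ± 0.11, with mutant arrays from 5.66 to 6.58 and descendant arrays from 7.62 to 8.01.

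Further falls of about 2-fold came from several families. The F-box gene fbxa-107, of a family of substrate adaptors for protein breakdown, stood at -1.21 ± 0.14. The gene zig-3, which encodes a secreted immunoglobulin-domain protein, stood at -1.16 ± 0.13 and the claudin-like gene cld-9 at -1.01 ± 0.17. The glyoxylate cycle enzyme gene icl-1, which lets larvae make sugar from fat, fell by 0.99 (SE 0.10, adjusted p = 8.04e-08). Its mutants read 8.44, 8.38 and 8.48 on day 1 and 9.94, 9.59 and 9.69 on day 2, against 9.66, 9.92 and 9.68 and then 10.41, 10.32 and 10.5. The macrophage migration inhibitory factor gene mif-1 also differed by -0.99 (SE 0.09), as did the glucuronosyltransferase gene ugt-19 (SE 0.19) and K09C6.9 (SE 0.15). Mutant values lay under the 25th percentile on 2 arrays for fbxa-107, 2 for cld-9 and 3 for ugt-19, where fold changes are uncertain. The other falls of the 15 were F32D8.12, F42A10.7, M04C9.3 and F42A9.6, at -1.28, -1.27, -1.21 and -1.12. In all 30 leading genes, 6 of 6 mutant arrays lay beyond the same-day descendants. These genes were picked by the size of the same differences, so their separation is no separate result. Over all genes it occurred above the descendants in 4.34% and below them in 4.0%.

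**Figure D2:**
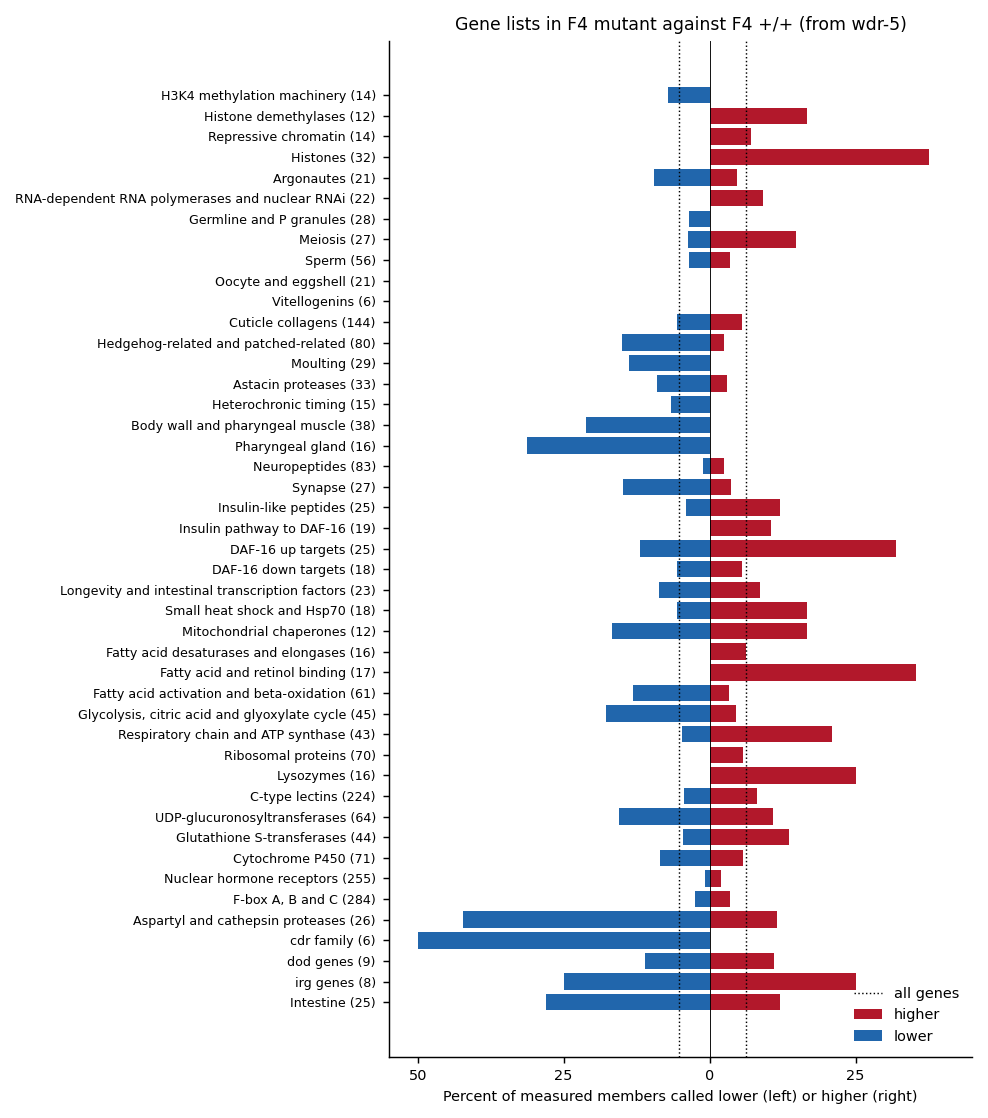
Bars give the percent of measured members of each gene list that were called lower (left, blue) or higher (right, red) in F4 mutants, with the number measured in brackets and dotted lines at the percents of all genes. Histone genes reach 37.5% higher with none lower, and aspartyl and cathepsin proteases reach 42.3% lower.

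Chromatin genes were described first, since the mutated gene belongs to them. Of 14 measured genes of H3K4 methylation, none rose and 1 fell, wdr-5.1 itself. The methyltransferase gene set-2 differed by 0.23 ± 0.09 (adjusted p = 0.0874) and dpy-30, a subunit gene, by 0.16 ± 0.06 (adjusted p = 0.0951). Without the F5 mutant arrays that stood apart, 2 genes of the list rose, dpy-30 among them (adjusted p = 0.0293). Of 12 histone demethylase genes 2 rose (16.7%, against 6.16% of all genes), among them jmjd-1.2, which acts on repressive lysine marks (0.39 ± 0.07, adjusted p = 5.89e-04). Of 14 repressive chromatin genes 1 rose, the chromodomain gene mrg-1 (0.23 ± 0.06, adjusted p = 0.0115).

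Histone genes rose together in part. Of 32 measured members 12 rose (37.5%, against 6.16% of all genes), 0 fell and 20 were not called, with a list median of 0.19. The same list had 7 rises on birth day 1 and 12 on birth day 2, with 0 falls on either. In his-59 the mutants read 7.6, 7.58 and 7.44 on day 1 and 7.6, 7.09 and 7.44 on day 2. Descendants read 7.21, 6.89 and 7.09, then 6.44, 6.25 and 6.49. Mutants were above all same-day descendants on both days, by a fitted 0.73 ± 0.10 (adjusted p = 4.61e-06). The members his-38, his-4 and his-31 rose by 0.72 ± 0.09, 0.81 ± 0.12 and 0.56 ± 0.11 (highest adjusted p = 8.85e-04). Histone genes are near copies of each other, and how far their probes tell copies apart is not given in the sources used here.

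A pair of the leading rises lay beside histone genes. In gene order on chromosome IV, lys-10, his-31 and his-32 are neighbours, and on chromosome V C50F4.6 lies between his-41 and his-37. All 6 of these genes rose, by 0.44 to 3.41. Of the 35 measured genes next to a histone gene, 3 rose (8.57%, against 6.16% of all genes) and 0 fell. The rises were lys-10, C50F4.6 and cyp-31A2. The median difference of the 35 genes was -0.0015, and those that did not rise were not called.

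Small RNA genes were read next to the shares of all genes, 6.16% for rises and 5.24% for falls. Argonautes, the proteins that carry small RNAs, had 1 rise (4.76%) and 2 falls (9.52%) among 21, with 18 not called. The Argonaute gene vsra-1 rose by 1.26 ± 0.11 (adjusted p = 2.15e-09). Its mutants read 7.44, 7.61 and 7.56 on day 1 and 7.11, 7.09 and 6.5 on day 2, all above the descendants, which read 6.03 to 6.15 and 5.76 to 5.87. The germline Argonaute gene csr-1 fell by 0.53 (SE 0.14, adjusted p = 0.0104). Of 22 RNA-dependent RNA polymerase and nuclear RNAi genes 2 rose (9.09%), among them rrf-2 (0.67 ± 0.11, adjusted p = 1.02e-04), and 0 fell.

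Defence genes held some of the largest changes. Of 16 lysozyme genes 4 rose (25%, against 6.16% of all genes) and 0 fell. Beside lys-10 these included lys-7 (1.1 ± 0.20) and the invertebrate-type lysozyme genes ilys-3 (1.21 ± 0.16) and ilys-2 (0.84 ± 0.16), with a highest adjusted p of 3.97e-04. For lys-7 the mutants read 9.12 to 9.99 on day 1 and 10.24 to 10.66 on day 2, and the descendants 8.17 to 8.86 and 9.20 to 9.69. The groups did not overlap within a day. C-type lectins, sugar-binding proteins of which many are secreted by the intestine, had 18 rises (8.04%) and 10 falls (4.46%) among 224, with clec-47 at 0.99 ± 0.11 and clec-67 at -0.82 ± 0.14. Of 8 irg genes, named for their response to infection, 2 rose and 2 fell (25% each, against 6.16% and 5.24% of all genes). The pathogen and translation-block reporter gene irg-1 rose by 1.11 ± 0.30 (adjusted p = 0.0116), with 2.05 on day 1 and 0.18 on day 2.

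Digestive proteases were called lower more often than all genes. Of 26 aspartyl and cathepsin protease genes 11 fell (42.3%, against 5.24% of all genes), 3 rose (11.5%) and 12 were not called. Within the birth days, 1 rose and 11 fell on day 1, and 3 rose and 3 fell on day 2. Besides asp-12, the gut protease gene asp-1 fell by 0.32 (SE 0.04, adjusted p = 7.54e-07) and the cathepsin B gene cpr-8 by 0.82 (SE 0.13, adjusted p = 7.90e-05). The cathepsin gene cpr-4 went the other way, with a rise of 0.46 ± 0.09 (adjusted p = 9.03e-04). The count of rises was 1 without mutant replicate 4, 5 or 6 or descendant replicate 5 or 6. Intestine genes had 7 falls (28%) and 3 rises among 25, a list that shares asp-1 and cpr-4 with the proteases. Its rises numbered 1 without mutant replicate 3, 4, 5 or 6 or descendant replicate 2, 5 or 6.

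Genes of the insulin and stress pathways were read next to the shares of all genes, 6.16% for rises and 5.24% for falls. DAF-16, the FOXO factor under insulin signalling, raises many genes in long-lived insulin receptor mutants. Of 25 such targets measured, 8 rose (32%), 3 fell (12%) and 14 were not called, with a median of 0.19. The largest rises were dod-3, lea-1 and lys-7, and icl-1 fell against the direction of the list. The list shares members with others described here, such as lys-7, hsp-12.3, sip-1, ins-35, hacd-1 and cdr-2. Of 18 targets that DAF-16 lowers, 1 rose, the mitophagy gene dct-1 (0.39 ± 0.09), and 1 fell, dod-17 (-0.81 ± 0.12), or 5.56% each. Insulin-like peptide genes had 3 rises (12%) and 1 fall (4%) among 25, with ins-35 at 0.99 ± 0.20 and ins-13 at -0.57 ± 0.13. The ins-13 values lay under the 25th percentile on 5 mutant and 3 descendant arrays. Their rises numbered 1 without replicate 3 of either group. Of the 19 genes from the receptor to DAF-16, 2 rose (10.5%), the 14-3-3 gene par-5 (0.12 ± 0.03) and eak-7 (0.27 ± 0.06).

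Transcription factor genes of longevity had 2 rises and 2 falls among 23 (8.7% each), next to 6.16% and 5.24% of all genes. The zinc finger gene pqm-1 rose by 0.80 ± 0.13, while the hypoxia factor gene hif-1 fell by 0.53 (SE 0.11) and its partner gene aha-1 rose by 0.32 ± 0.08. Among 18 small heat shock and Hsp70 genes 3 rose (16.7%) and 1 fell (5.56%), with sip-1 at 1.09 ± 0.28 and hsp-12.3 at 0.80 ± 0.14. The mitochondrial chaperone genes hsp-60 and hsp-6, which are induced when proteins misfold in mitochondria, fell by 0.70 (SE 0.09) and 0.55 (SE 0.08). The mitochondrial exporter gene haf-1 of the same list of 12, which had 2 rises and 2 falls (16.7% each), rose by 0.39 ± 0.06.

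Among metabolic lists, those of the sugar pathways and of beta-oxidation had a larger share of falls than the 5.24% of all genes. Glycolysis, citric acid and glyoxylate cycle genes had 8 falls (17.8%) and 2 rises among 45, with aconitase aco-2 at -0.57 ± 0.07, succinyl-CoA ligase sucg-1 at -0.46 ± 0.07 and hexokinase hxk-2 at -0.36 ± 0.09. Fatty acid activation and beta-oxidation genes had 8 falls (13.1%) and 2 rises among 61, with falls in acdh-2 (-0.88 ± 0.17) and acs-2 (-0.57 ± 0.12) and a rise in hacd-1 (0.68 ± 0.13). The 8 falls became 5 without mutant replicate 1 or 3 or, for the sugar pathways, descendant replicate 5 and, for beta-oxidation, descendant replicate 3. Within the birth days, the sugar pathways had 0 rises and 12 falls on day 1 (list median -0.14). On day 2 they had 4 rises and 4 falls (list median 0.10). Beta-oxidation genes had 1 rise and 8 falls on day 1 (list median -0.12), and 3 rises and 2 falls on day 2 (list median -0.02). The excess of falls over rises was thus seen on day 1 and not on day 2.

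Of other metabolic lists, a minority of members rose. Respiratory chain and ATP synthase genes had 9 rises (20.9%) and 2 falls among 43, with 32 not called. The rises were small, as in the cytochrome oxidase genes cox-4 (0.22 ± 0.04) and cox-5B (0.17 ± 0.03), and the fall of the complex III gene ucr-2.3 was larger (-0.56 ± 0.07). Of 17 fatty acid and retinol binding genes 6 rose (35.3%) and 0 fell, far-3 and far-6 (0.28 ± 0.07) among them, and 3 rose without mutant replicate 1. Of 16 desaturase and elongase genes 1 rose, the desaturase gene fat-4 (0.38 ± 0.06). Detoxification families were mixed, and over all genes 6.16% rose and 5.24% fell. UDP-glucuronosyltransferases had 7 rises (10.9%) and 10 falls (15.6%) among 64. Among them ugt-9 stood at 0.70 ± 0.11, ugt-16 at -0.77 ± 0.13 and ugt-22 at -0.67 ± 0.09. Without descendant replicate 1 the rises of the family numbered 4, and without descendant replicate 3 its falls numbered 6. Glutathione S-transferases had 6 rises (13.6%) and 2 falls (4.55%) among 44. Among them gst-24 stood at 1.07 ± 0.14, gst-39 at 0.61 ± 0.08 and gst-6 at -0.89 ± 0.10. The cdr family, glutathione transferase-like genes named for cadmium, had 3 falls among 6: cdr-2 (-0.68 ± 0.15), cdr-4 (-0.63 ± 0.16) and cdr-6 (-0.38 ± 0.11).

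Muscle and pharyngeal gland genes were called lower more often than all genes, while most were not called. Of 38 muscle genes 8 fell (21.1%), 0 rose and 30 were not called, with the troponin T gene tnt-3 at -0.69 ± 0.12 and the pharyngeal myosin genes myo-2 and myo-1 at -0.62 ± 0.14 and -0.54 ± 0.13. Mutants read 7.11, 7.14 and 7.20 on day 1 and 7.15, 7.42 and 7.45 on day 2 for myo-2, against 7.80, 8.11 and 8.07 and then 7.67, 7.73 and 7.83 in descendants. The separation was wide on day 1 and narrow on day 2. Within the birth days, 9 muscle genes fell on day 1 (list median -0.21), and 2 fell and 1 rose on day 2 (list median -0.0052). Of 16 pharyngeal gland genes 5 fell (31.2%), with phat-4 at -0.85 ± 0.16, pqn-74 at -0.69 ± 0.15 and phat-2 at -0.47 ± 0.13. The remaining 11 were not called. These falls numbered 8 without mutant replicate 1 and 3 without mutant replicate 3 or 5 or descendant replicate 2 or 6. In whole animals, fewer cells of a type and less RNA per cell cannot be told apart.

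Cell type markers were read beside these lists. Of 5 pharynx markers 4 fell, and of 5 body wall muscle markers 3 fell, next to 5.24% of all genes. By contrast, 0 of 5 hypodermis, 0 of 6 germline, 0 of 5 sperm and 0 of 6 oocyte and yolk markers were called. The pharynx markers that fell were myo-2, myo-1, phat-4 and pqn-74, and the body wall markers include tnt-3. These genes are named above, so the marker counts are not separate from the muscle and pharyngeal gland lists. With birth day 2 alone the calls of myo-2, myo-1 and phat-4 were lost, and with birth day 1 alone that of pqn-74. Among neuron markers 1 of 6 rose, the synaptobrevin gene snb-1 (0.46 ± 0.05), and among intestine markers 1 of 6 fell. The mean of the pharynx markers was 7.67 to 7.79 in mutants on day 1 and 7.89 to 8.12 on day 2, against 8.38 to 8.56 and 8.41 to 8.6 in descendants. No marker of any type lay under the 25th percentile on all 12 arrays.

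Of nerve genes, neuropeptide genes had 2 rises (2.41%) and 1 fall (1.2%) among 83, with nlp-11 at 0.47 ± 0.13. Synaptic and G protein genes had 1 rise, snb-1, and 4 falls (14.8%) among 27, with the G protein genes egl-30 and goa-1 at -0.58 ± 0.15 and -0.31 ± 0.08. Those 4 falls became 2 without mutant replicate 3 or descendant replicate 2, 5 or 6.

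Among genes of the skin, hedgehog-related and patched-related genes, which in C. elegans serve the cuticle and moulting, had 12 falls (15%) and 2 rises among 80. The patched-related gene ptr-24 fell by 0.79 (SE 0.09, adjusted p = 1.51e-07) and wrt-4 by 0.85 (SE 0.15, adjusted p = 1.80e-04), while grl-14 rose by 0.70 ± 0.08. Of 29 moulting genes 4 fell (13.8%, against 5.24% of all genes) and 0 rose. The falls included mlt-10 at -0.82 ± 0.13 and the cuticle cross-linking oxidase gene bli-3 at -0.30 ± 0.08. Of 15 timing genes 1 fell, lin-29, which drives the switch to adult skin (-0.37 ± 0.08). Cuticle collagens had 8 rises and 8 falls among 144 (5.56% each), shares near those of all genes, with col-142 at 0.89 ± 0.17.

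Germline and yolk genes were mostly not called. Germline and P granule genes had 0 rises and 1 fall among 28. The fall was in the RNA helicase gene cgh-1 (-0.64 ± 0.22, adjusted p = 0.0478), and the call was lost when any 1 array other than mutant replicate 2 or 3 was left out. Meiosis genes had 4 rises and 1 fall among 27, the fall in him-5, which serves crossing over on the X chromosome (-0.85 ± 0.13, adjusted p = 2.31e-05). The 4 rises numbered 0 to 2 without mutant replicate 1, 2 or 3 or descendant replicate 2, 3, 5 or 6. Within the days, germline genes had 6 rises on day 1 and 0 on day 2, and meiosis genes 7 and 0. Sperm genes had 2 rises and 2 falls among 56, with 15 rises on day 1 (list median 0.42) and 2 on day 2 (list median -0.2), with cpb-1, a translation regulator of sperm making, at -0.36 ± 0.07. None of 21 oocyte and eggshell genes and none of 6 vitellogenins was called in limma, and their lowest adjusted p was 0.0708, in the eggshell gene chs-1 (0.82 ± 0.30).

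**Figure D3:**
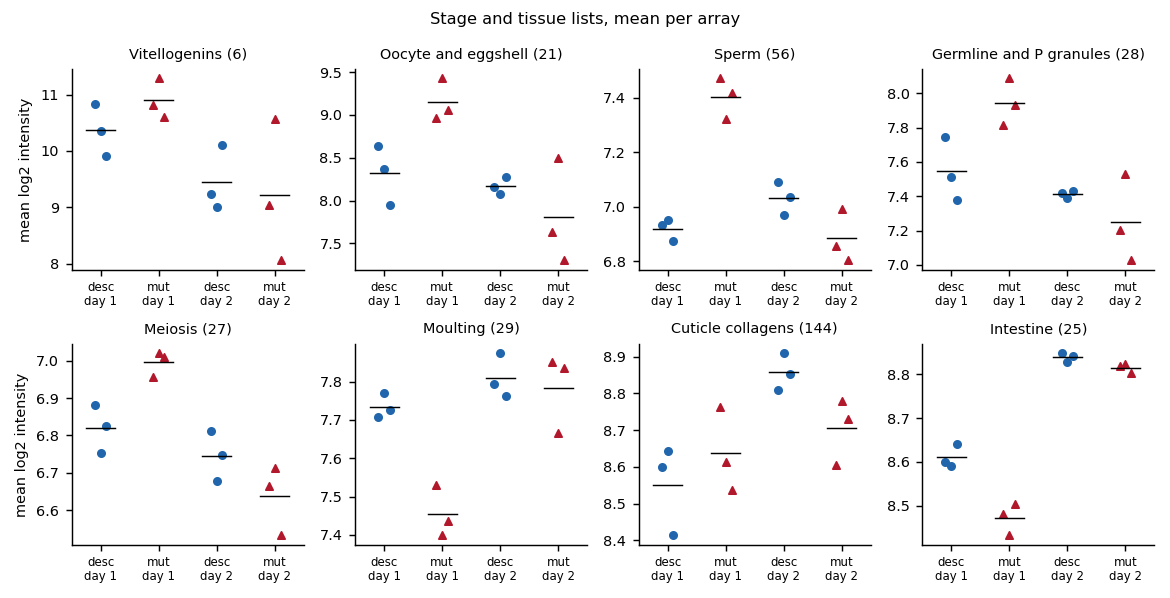
Each mark is the mean log2 intensity of 1 array over the measured genes of a list (number in brackets) in F4 descendants (desc, circles) and F4 mutants (mut, triangles) on each birth day, with a line at the mean of 3 arrays. On day 1 the mutants lie above all descendants for the oocyte, sperm, germline and meiosis lists and below them for the moulting and intestine lists.

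Stage-related lists differed between the groups on birth day 1. The array mean of oocyte and eggshell genes was 8.96 to 9.43 in mutants and 7.95 to 8.64 in descendants on day 1, and 7.30 to 8.50 against 8.08 to 8.28 on day 2. For sperm genes it was 7.32 to 7.47 against 6.88 to 6.95 on day 1 and 6.80 to 6.99 against 6.97 to 7.09 on day 2. Mutants thus stood above descendants on day 1, and their ranges met or crossed on day 2. Moulting genes read 7.40 to 7.53 in mutants and 7.71 to 7.77 in descendants on day 1, and 7.67 to 7.85 against 7.76 to 7.87 on day 2. Oocyte and yolk genes belong to late larvae and adults, and all 6 such markers lay above the array median on all 12 arrays labelled L3. In F4 animals without mutant ancestors, the oocyte list read 7.46 to 7.87 on day 1 and 8.70 to 9.27 on day 2. Their sperm list read 6.34 to 6.65 and 7.17 to 7.28, and their moulting list 7.82 to 7.86 and 7.29 to 7.64. In these lists the +/+ groups, which share a genotype, thus also stood apart from each other on both days. The part of these stage-related levels in the other differences was not tested.

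**Figure D4:**
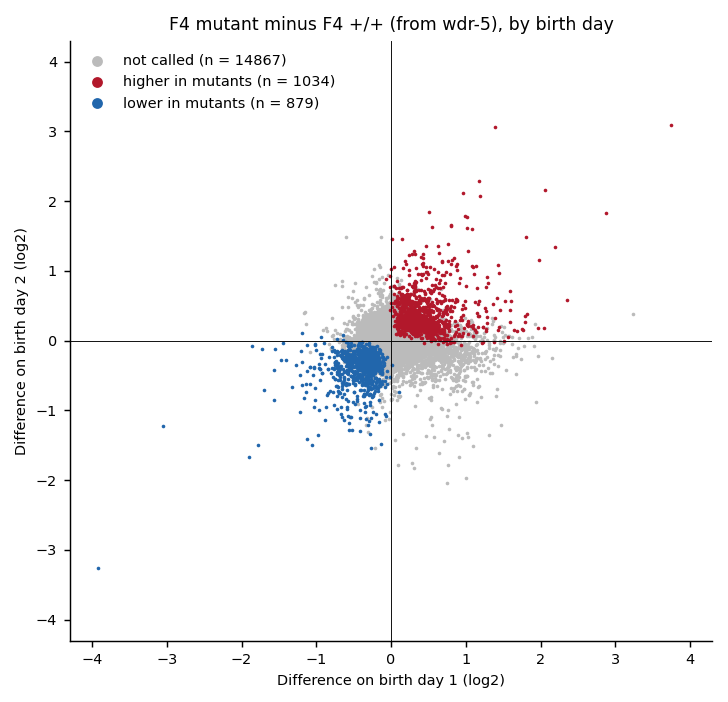
Each point is 1 of 16780 genes by its mutant minus descendant difference on birth day 1 (horizontal axis) and birth day 2 (vertical axis), in log2 units, coloured where called over both days. Called genes lie mostly in the upper right and lower left corners, while a tail of grey points has a rise on day 1 alone.

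The differences were then compared between the birth days. In the fit with a mean for each group and day, day 1 had 1530 rises (9.12%) and 912 falls (5.44%), and day 2 had 694 rises (4.14%) and 492 falls (2.93%). Across all genes, 57.3% had the same sign on both days and the differences of the days had r = 0.214, and genes are not independent replicates. The difference between the days was itself called in 407 genes (2.43%), of which 288 had opposite signs on the days and 134 were also called overall. By probe sets this count was 498 (2.39%), and it fell to 159 to 293 without mutant replicate 1, 3, 4 or 6 or descendant replicate 2, 3, 4, 5 or 6. It was 2405 without the F5 mutant arrays that stood apart. The birth days appear to have been normalized separately, so birth day and processing cannot be told apart in these differences between days.

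Genes with a called difference between the days included some of the leading ones. The difference of asp-12 was -3.05 on day 1 and -1.22 on day 2. The rise of lea-1 was 0.97 on day 1 and 2.11 on day 2, while that of Y37D8A.8 was 2.36 and then 0.59. The lectin gene clec-4 changed direction, from -0.61 on day 1 to 1.49 on day 2. Its mutants read 8.37, 7.74 and 8.42 and then 9.20, 8.93 and 9.05, against 8.71, 8.71 and 8.93 and then 7.79, 7.43 and 7.5. The acyltransferase gene acl-12 turned the other way, from 0.51 to -0.53. Another 3 F-box genes, fbxa-108, fbxa-192 and fbxa-193, fell on day 1 (-1.55, -1.73 and -1.45) and differed by -0.12, -0.12 and -0.03 on day 2. In fbxa-193 all day 2 arrays of both groups, at 4.18 to 4.32, and all mutant arrays of day 1 lay under the 25th percentile.

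On the chromosomes, genes of the X were called lower more often than those of the autosomes. Of 2337 X-linked genes 91 rose (3.89%) and 172 fell (7.36%), whereas on the 5 autosomes 6.23% to 7.05% rose and 4.46% to 5.59% fell. Within the days, the X had 87 rises and 196 falls on day 1 and 89 rises and 71 falls on day 2. Falls outnumbered rises on day 1 and not on day 2. In F5 the same comparison had 118 rises (5.05%) and 595 falls (25.5%) on the X, next to 15.7% and 13.8% of all genes. Without F5 mutant replicates 1 and 6 these were 87 (3.72%) and 553 (23.7%), next to 13.3% and 12.1% of all genes.

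Called genes also had called neighbours. Of the called rises with a known place, 20.6% had another called rise as the next measured gene on either side, where 12% of all genes had such a neighbour. For falls the shares were 19.1% and 10.4%. The longest run was of 7 genes on chromosome II, from lido-7 to lido-12, which rose by 0.25 to 0.75. Lectin genes clec-136 to clec-139 formed a run of 4 with rises of 0.22 to 0.62. Runs of 3 genes held some leading rises: C01G10.5, C01G10.4 and C01G10.17 (1.08 to 2.23), F53A9.7, F53A9.8 and F53A9.9 (0.43 to 1.40), and the transthyretin-related genes ttr-24, ttr-25 and ttr-26 (0.39 to 1.09). Adjacent genes of 1 family can share probe sequence, which was not assessed. Around wdr-5.1 on chromosome III, 2 of 81 measured genes within 50 places rose and 7 fell, next to 6.16% and 5.24% of all genes. Their differences ran from maph-1.3 at -0.90 to smim-14 at 0.63. Genes this close would stay linked to the mutation in crosses, and linked background cannot be told apart from the effect of the mutation.

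**Figure D5:**
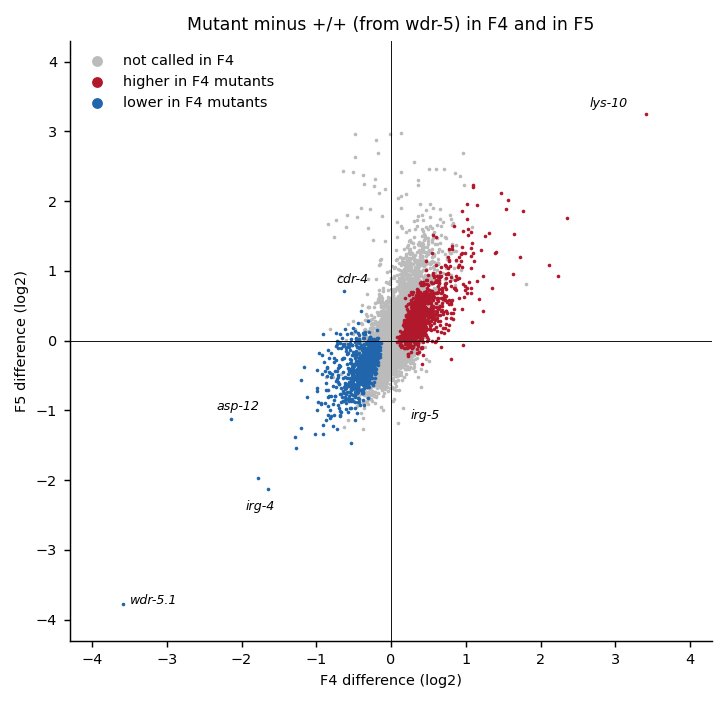
Each point is 1 of 16780 genes by its mutant minus descendant difference in F4 (horizontal axis) and in F5 (vertical axis), in log2 units, coloured where called in F4. Genes called in F4 lie mostly on the same side in F5, with wdr-5.1 at -3.59 and -3.77 and lys-10 at 3.41 and 3.26, while cdr-4 lies at -0.63 and 0.71.

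The differences of the same comparison in F5 come from other arrays than those in F4. The spread behind the p-values came from a fit over all arrays, so calls in F4 and in F5 are not independent. In F5, 2639 genes rose (15.7%) and 2317 fell (13.8%), and 6294 probe sets were called in all (30.3%). Without F5 mutant replicates 1 and 6, 2235 genes rose and 2035 fell. Of the F4 rises 654 also rose in F5 (63.2% of the F4 rises and 24.8% of the F5 rises), and 3 fell. Of the F4 falls 601 also fell (68.4% of the F4 falls and 25.9% of the F5 falls), and 3 rose. Without F5 mutant replicates 1 and 6, 587 of the F4 rises (56.8%) and 578 of the falls (65.8%) were called the same way in F5. Differences of all genes had r = 0.669 between the generations, and 71.3% had the same sign. Leading genes returned: far-3 at 1.86, dod-3 at 2.01, lea-1 at 1.89, vsra-1 at 1.51, irg-4 at -2.13 and asp-12 at -1.12, all called. C01G10.5 differed by 0.93 (adjusted p = 0.0675) and ugt-19 by -0.42 (adjusted p = 0.116), without passing in F5.

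Lists differed in size between the generations. In F5, 18 of 21 oocyte and eggshell genes, 5 of 6 vitellogenins and 34 of 56 sperm genes rose, against 0, 0 and 2 in F4. Over all genes 15.7% rose and 13.8% fell in F5, against 6.16% and 5.24% in F4. Without F5 mutant replicates 1 and 6 the F5 rises of the oocyte, vitellogenin and sperm lists numbered 17, 2 and 40. Histone genes had 18 rises and 1 fall, proteases 0 rises and 13 falls, and lysozymes 4 rises and 1 fall, next to 12 and 0, 3 and 11, and 4 and 0 in F4. Without those arrays the F5 counts were 14 and 1, 0 and 11, and 4 and 1. Whether the F4 difference departs from the F5 difference was tested gene by gene, and 10 genes passed (0.0596%), with 12 probe sets (0.0577%). The cadmium-responsive gene cdr-4 was among them: -0.63 in F4 and 0.71 in F5, with a contrast of -1.33 ± 0.23 (SE, adjusted p = 0.0246). The infection response gene irg-5 differed by 0.16 in F4 and fell in F5 (-0.97), with a contrast of 1.14 ± 0.23 (adjusted p = 0.0407). The transcription factor gene mdl-1 differed by -0.14 in F4 and rose in F5 (0.51), with a contrast of -0.65 ± 0.12 (adjusted p = 0.0251). None of these 3 passed with replicate number as a block (adjusted p = 0.0646, 0.11 and 0.0879). Without F5 mutant replicates 1 and 6, 9 genes passed, of which 5 were among these 10, and mdl-1 had an adjusted p of 0.0521. The other 7 were W02B12.1, nhr-35, C31H5.6, F41C3.2, C56E6.2, Y42G9A.3 and mcu-1. No vitellogenin or oocyte gene was among the 10, although their list medians of the contrast were -1.78 and -1.03.

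The counts of the remaining lists stand next to shares of 6.16% for rises and 5.24% for falls over all genes. Ribosomal protein genes had 4 rises and 0 falls among 70, nuclear hormone receptors 5 and 2 among 255 (nhr-114 at -0.49 ± 0.08), F-box genes 10 and 7 among 284, cytochrome P450 genes 4 (5.63%) and 6 (8.45%) among 71 (cyp-14A5 at 0.79 ± 0.16), astacin proteases 1 (3.03%) and 3 (9.09%) among 33 and dod genes 1 and 1 among 9 (11.1% each). Several of these counts moved when 1 array was left out. The ribosomal rises numbered 1 or 2 without mutant replicate 6 or descendant replicate 2, 5 or 6, and the nuclear receptor rises 2 or 3 without mutant replicate 3, 4 or 6 or descendant replicate 1, 2 or 3. The F-box falls numbered 11 without mutant replicate 6, and the astacin falls 1 without mutant replicate 5 or descendant replicate 2, 5 or 6. The P450 rises numbered 2 without mutant replicate 1, 2 or 3 or descendant replicate 3, 4 or 5, and the P450 falls 3 without replicate 5 of either group. The collagen falls numbered 1 to 4 without mutant replicate 2, 4, 5 or 6 or descendant replicate 1, 2, 4, 5 or 6. Without the F5 mutant arrays that stood apart, there were 14 collagen falls, 17 F-box rises, 6 astacin falls, 8 pharyngeal gland falls, 3 falls of timing genes, and 4 rises and 4 falls of neuropeptide genes.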

How the data were processed

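RNA of whole animals was measured on 35 arrays. The deposited values are log2 intensities per probe set, made by the authors with RMA, per the submitters' processing notes; the software version, array annotation and genome build are not given in the sources used here, and the values' span was taken to mean base 2. The tables of the birth days appear to have been normalized separately (above), and RMA pools probes, so single probes cannot be checked. Array depth has no counts. All arrays of the series were used.

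All 20806 probe sets that are not controls were fitted with limma 3.58.1 in R 4.3.3 (lmFit, eBayes with an intensity trend) over the 35 arrays, with a mean for each of 6 groups and a birth day term within each generation (27 residual degrees of freedom). Values of single days and the difference between days came from a fit with a mean for each group and day (23 residual degrees of freedom). The reference gene table (assembly WBcel235) named 15504 probe sets by accession and 4660 by symbol, 600 kept the deposited symbol and 42 had none; 1937 repeated another's values. Gene counts use the brightest probe set of each of 16780 genes, without those whose values several genes share (146). The table gave chromosomes and gene order only.

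The text names wdr-5.1 and its paralogs, the 15 largest rises and 15 largest falls with the same sign on both days, members of 45 gene lists with the smallest p (up to 4 each) and the 5 smallest p between days, narrowed later to calls that held without any 1 array except cgh-1, so their stability to leaving out arrays is no result. Run members, genes near wdr-5.1 and genes of the generation contrast were named after their values were seen. The arrays, lists and contrasts were chosen with earlier results of these data known. On simulated data with the F4 comparison's spread and 20806 probe sets, 87 of 100 changes of 0.5 log2 and 99 of 100 changes of 1 were recovered, with 12 false calls. Same-numbered mutant and descendant arrays had deviations correlated at -0.131 to 0.302, with 2 of 6 pairs above 0.1, so the numbers were not taken as pairs. Alternatives were another set of arrays, no birth day term, group and day means, a replicate block, quantile normalization, a filter on dim probe sets, no trend, array weights, distinct probe sets, each day alone and leaving out each array. The contrast between generations and the fit without F5 mutant replicates 1 and 6 were added after the data were seen. No sequences were used here.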

Additional observations from a re-analysis of the deposited data

Results flagged for a closer look

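Among 234 groups of 6 arrays, one for each named gene and group, 9 had an array far from the others by the gap to its nearest neighbour, where chance gives about 1 in 20. In F4 mutants these were irg-4 in replicate 6 (6.03), F32D8.12 in replicate 1 (8.0), his-59 in replicate 5 (7.09), csr-1 in replicate 6 (6.80), ptr-24 in replicate 4 (7.74), grl-14 in replicate 1 (5.67), pqn-74 in replicate 1 (8.6) and ilys-3 in replicate 1 (5.45). In descendants it was wdr-5.3 in replicate 1 (7.14). The 6 deposited values of both days were pooled for this check, although their low ends differ, and no explanation was tested.

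The mutant difference itself differed between the birth days in 22 named genes, by the called contrast of day 1 minus day 2. Birth day and the apparently separate normalization of the days cannot be told apart here, above all at low signal. For ugt-19, 3 mutant and 2 descendant arrays, all of day 2, lay under the 25th percentile. The contrast was negative for clec-4 (-2.1), asp-12 (-1.83), fbxa-192 (-1.6), fbxa-108 (-1.43), fbxa-193 (-1.42), acdh-2 (-1.2), lea-1 (-1.15), ugt-19 (-1.14), fbxa-107 (-1.0), hsp-12.3 (-0.97), dod-17 (-0.92), ins-13 (-0.86), acs-2 (-0.77), pqm-1 (-0.76), clec-47 (-0.72), hacd-1 (-0.71), M04C9.3 (-0.71) and icl-1 (-0.65). It was positive for irg-1 (1.87), Y37D8A.8 (1.77), ugt-1 (1.06) and acl-12 (1.04). Between generations, F4 minus F5, the difference departed for cdr-4 (-1.33), irg-5 (1.14) and mdl-1 (-0.65).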

How the results depend on the processing

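The birth day term mattered most: without it the F4 comparison had 278 rises and 321 falls by probe sets, in place of 1218 and 1237. Birth day 2 alone gave 712 and 542. Without 1 array the rises numbered 935 to 1260 and the falls 954 to 1314. The difference between days, 498 probe sets, became 1832 with the 12 arrays alone, 2227 with array weights, 2405 without F5 mutant replicates 1 and 6, an alternative added after the data were seen, and 159 to 399 without 1 array. The F5 comparison, 6294, became 2412 without the birth day term and 3450 on day 1 alone. The generation contrast, 12 probe sets in limma, is the least settled count. It became 0 without the birth day term (864 at an unadjusted p under 0.05), 0 with the replicate block (2656 unadjusted), 484 with group and day means, 20 with quantile normalization, 817 with array weights, 5 on day 1 alone and 1630 on day 2 alone. The cause of these moves was not tested. Of genes not called over both days, clec-4 was -0.61 (adjusted p = 0.0229) and acl-12 0.51 (adjusted p = 0.00244) on day 1 alone, against their signs over both days.

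Of the called genes the text names, calls lost numbered 30 without the birth day term, 18 on day 1 alone and 29 on day 2 alone, and 1 each (cgh-1) with the replicate block and without the trend. With replicate number as a block the F4 comparison had 1024 rises and 1092 falls; the numbers are not known to pair the arrays, and no other call among the named F4 genes was lost under it. Low signal limits the sizes of changes for lys-10, fbxa-107, fbxa-108, fbxa-193, cld-9, ugt-19, ins-13, ilys-2, acdh-2 and clec-137.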
